A study of Mus musculus with 36 samples.

Results

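The respiratory chain genes described here are the nuclear genes whose symbol begins with *Nduf*, *Uqcr*, *Atp5* or *Cox4* to *Cox8*, together with *Sdha*, *Sdhb*, *Sdhc* and *Sdhd*, among the genes annotated as protein coding. They filled 98 of the 56246 rows of the expression table and had 94 different symbols. RNA-seq was done on mouse tibia with the ends and the marrow removed, so mostly cortical bone, from 36 mice of 6 months in 3 groups of 12, each with 6 males and 6 females. The first group was wild type (WT) and not treated. The other 2 groups were of the genotype labelled LMNAG608G/G608G, here LMNA G/G, homozygous for a human LMNA transgene with the mutation of Hutchinson-Gilford progeria. These mice received at postnatal day 14, by injection into the retro-orbital sinus, either saline (saline group) or an adenine base editor aimed at the mutation (ABE group). The transgene was a bacterial artificial chromosome, and the editor was carried by AAV9, a capsid that reaches many tissues, so neither was particular to bone. The study describes its groups as littermates, while the labels name no litters and number the WT mice in a series of their own. If the WT mice came from another cohort, that difference cannot be told apart from genotype.

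Respiratory chain proteins sit in the inner mitochondrial membrane. Complexes I and II take electrons from NADH and succinate, complex III passes them to cytochrome c, complex IV reduces oxygen, and ATP synthase uses the proton gradient that results. Several complex IV subunits exist as a form found in most tissues and a form restricted to striated muscle, brown fat, lung or testis, and skeletal muscle fibres are among the cells richest in mitochondria. The 13 protein-coding genes of mitochondrial DNA were in the table, but each was listed at 0 in every library, so the mitochondrially encoded subunits could not be set beside the nuclear ones.

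Libraries had 48064068 to 116206662 reads on genes. Values are TPM (a count divided by gene length and by the library's total) rescaled by the median ratio over genes, which sets the bulk of genes equal between libraries. The lowest scaling factor, 0.216, belonged to ABE replicate 1, a female. The count between ABE and saline, *Cox6a1* and the ratios of the complex IV muscle forms are given with and without it. Other fold changes are given with it. When it was left out, 4 calls of single named genes were lost, 1 was gained and 85 held. Fold changes are differences of log2(rescaled TPM + 0.5) from limma, adjusted for sex. A gene passed at a p under 0.05 after Benjamini-Hochberg adjustment over the 16123 genes whose mean reached 0.5 TPM. Of the 98 rows, 90 passed this minimum. The 8 others were second copies of *Atp5a1*, *Atp5o*, *Ndufs3* and *Uqcrc1*, all 4 listed at 0, the testis forms *Cox7b2* and *Cox8c* at means of 0.00478 and 0.00371 rescaled TPM, and *Ndufb2* and *Ndufaf2* at 0.282 and 0.315. Litters could not be used in the fits, so p-values measure the spread between these mice.

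Nuclear respiratory chain genes were higher in LMNA G/G bone than in WT bone, and higher again in the ABE group. Between saline and WT, 80 of 90 genes rose, against 25.7% of all genes tested, and 1 fell, against 27%. The median change was a log2 of 0.58, or 1.49-fold, while the median over all genes was 0.00. Between ABE and WT, 88 rose (34.7% of all genes) and 1 fell (35.8%), with a median of 1.14, or 2.20-fold. Between ABE and saline, 83 rose (24.8% of all genes) and 3 fell (23.7%), with a median of 0.54, or 1.45-fold. The 3 comparisons share libraries, so they are not independent of each other. Without ABE replicate 1, 75 genes rose between ABE and saline, and the share of all genes in that fit is not given here.

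The size of the rise depended on the scaling. On the TPM as deposited, where the median over all genes moved by -0.13 between saline and WT, -0.42 between ABE and WT and -0.27 between ABE and saline, the median of the respiratory chain genes was 0.41, 0.58 and 0.16. Relative to that shift the genes were higher in each comparison, but on this scale fewer of them passed the test. Between saline and WT 38 were higher, against 6.44% of all genes, and between ABE and WT 74, against 9.12%. Lower in these comparisons were 1 and 2, where 3704 and 9458 of the 16123 genes were lower. Between ABE and saline 1 was higher, against 3.29%, and 3 were lower, *Cox6a1*, *Cox6b2* and *Cox8a*, against 40.8%.

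Genes of every complex rose, and the genes that help to assemble complex I had the smallest median. Between ABE and WT the median log2 change was 1.18 for the 7 catalytic core subunits of complex I, 1.08 for its 29 accessory subunits, 1.20 for the 4 subunits of complex II, 1.35 for the 8 of complex III, 1.19 for the 18 of complex IV and 1.13 for the 17 of ATP synthase, and all of those outside complex IV rose. The 7 complex I assembly factors all rose too, with a median of 0.60. Between saline and WT the assembly factors had a median of 0.12, and 3 of 7 rose, while the other complexes had medians of 0.53 to 0.68. *Ndufaf8*, the most abundant of them, rose by 0.28 between saline and WT (adjusted p = 0.0236, limma) and by 0.60 between ABE and WT. *Ndufaf1* was at 0.11 (adjusted p = 0.458) and rose by 0.56. The difference between complexes was not tested.

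**Figure D1:**
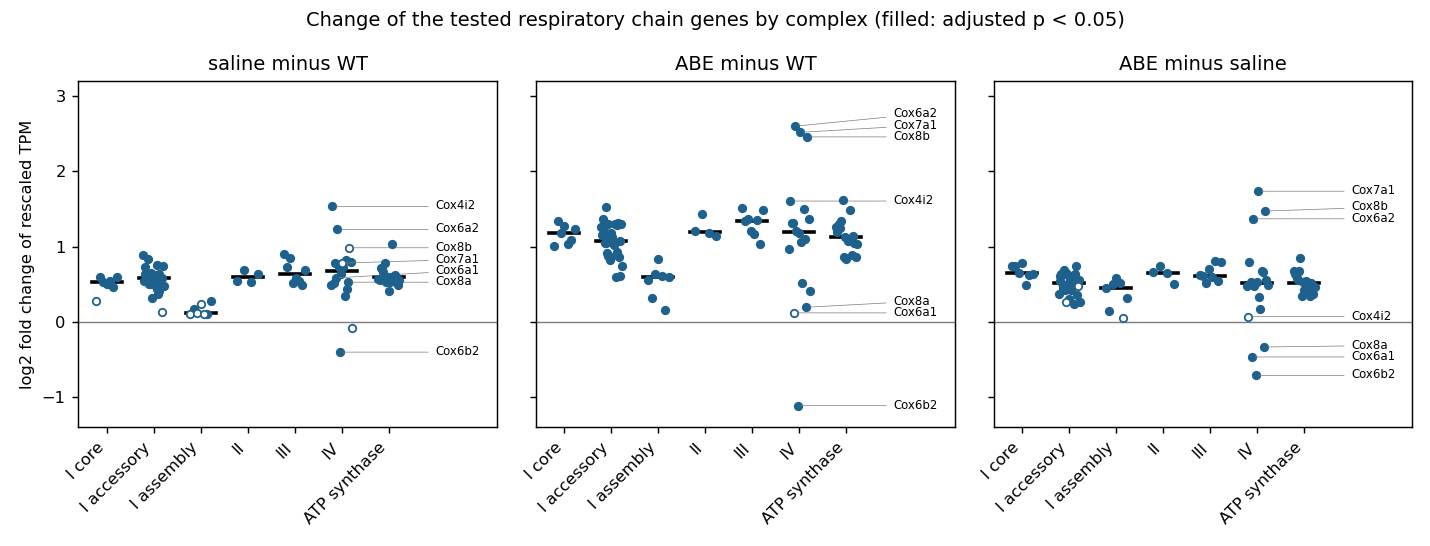
Log2 fold change of rescaled TPM (vertical axis) for each of the 90 genes tested, by complex (horizontal axis), in the 3 comparisons. Filled points passed an adjusted p of 0.05, open points did not, and black bars are medians. The bars for complexes I to IV and ATP synthase lie at about the same height in each panel, while single genes of complex IV lie farthest from 0 in both directions.

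The abundant core genes of each complex show the size of the common rise. *Atp5b*, the catalytic beta subunit of ATP synthase, was at 24.9, 31.7 and 44.0 rescaled TPM (lowest, median and highest library) in WT, 30.5, 46.7 and 72.3 in saline, and 38.7, 76.8 and 156 in ABE. The groups overlapped, with the ABE group the widest. Its log2 change was 0.55 ± 0.17 (SE) for saline against WT (adjusted p = 0.00722, limma), 1.19 ± 0.17 for ABE against WT (adjusted p = 3.52e-07) and 0.63 ± 0.17 for ABE against saline (adjusted p = 0.00385). Its partner *Atp5a1*, the alpha subunit, had changes of 0.58, 1.26 and 0.68. *Ndufv1*, a core subunit of complex I that binds NADH, rose by 0.46 between saline and WT and by 1.08 between ABE and WT. *Sdha*, the flavoprotein of complex II, rose by 0.55 and 1.21, and *Sdhd*, one of its membrane anchors, by 0.64 and 1.14. The small complex III subunits *Uqcr10* and *Uqcr11* rose by 0.90 and 0.73, and then by 1.52 and 1.34. Among accessory subunits of complex I, *Ndufa2* rose by 0.58 and 1.05 and *Ndufb11* by 0.58 and 1.13.

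Genes were also counted as RPKM on the principal transcript, a length that leaves out rarely used exons. This measure divides by a library's reads on genes and is not rescaled by the median ratio. The highest of the 90 genes over all libraries was *Atp5b*, at 379 on that scale. *Cox4i1* was next at 307, then *Atp5a1* at 251 and *Atp5e*, the epsilon subunit of ATP synthase, at 193. On the TPM scale the order was *Cox8b*, *Atp5a1*, *Atp5b* and *Cox4i1*. *Cox8b* moved from place 1 to place 12. Its length in the table is only 360 bp, and the TPM were made with a fixed number of bases taken off each length, which raises short genes most.

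Outside complex IV, the largest rise between saline and WT was that of *Atp5k*, the e subunit of ATP synthase that helps to hold its dimers. It was at 5.37, 6.56 and 10.1 rescaled TPM in WT, at 8.04, 14.6 and 21.0 in saline and at 9.55, 22.8 and 34.7 in ABE. Its WT range ran only into the lowest libraries of the other groups. The log2 change was 1.03 ± 0.17 for saline against WT (adjusted p = 1.04e-05, limma) and 1.48 ± 0.17 for ABE against WT (adjusted p = 1.30e-08). The 0.45 between ABE and saline (adjusted p = 0.033) lost its call without any 1 of 9 libraries. The 3 genes that encode the same c subunit of the ATP synthase ring moved to different extents. Between ABE and WT *Atp5g1* rose by 1.63 ± 0.23, *Atp5g3* by 1.13 ± 0.15 and *Atp5g2* by 0.87 ± 0.11. As a share of *Atp5g1* and *Atp5g2* together, *Atp5g1* had 28.2% ± 4.93 (SD, n = 12) of the TPM in WT, 33.0% ± 5.64 in saline and 41.7% ± 5.97 in ABE, on the lengths of the table.

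Few genes separated the groups completely. Between saline and WT, 4 genes had every saline library above every WT library (2.69% of all genes tested), and none had every one below (4.82%). They were *Cox4i2*, *Cox6a1*, *Cox8a* and *Cox7a2l*, all counted here with complex IV. *Cox7a2l* was at 9.69, 10.3 and 11.3 rescaled TPM in WT and at 11.5, 13.0 and 15.7 in saline, a rise of only 0.34 ± 0.07 (adjusted p = 7.40e-05, limma). Between ABE and WT, 13 genes did not overlap in the upward direction (3.41% of all genes) and none downward (5.27%). The 5 of them with the largest changes were *Cox4i2*, *Ndufa1*, *Cox6b1*, *Sdhd* and *Cox7a2*. *Ndufa1*, an accessory subunit of complex I on the X chromosome, was at 5.18, 6.22 and 8.91 in WT and 9.47, 17.7 and 24.8 in ABE. *Cox6b1*, on the outer face of complex IV, was at 24.5, 27.3 and 38.2 in WT and 39.7, 70.7 and 126 in ABE. Between ABE and saline the libraries of all 90 genes overlapped (0.031% of all genes lay fully higher and 0.0186% fully lower).

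**Figure D2:**
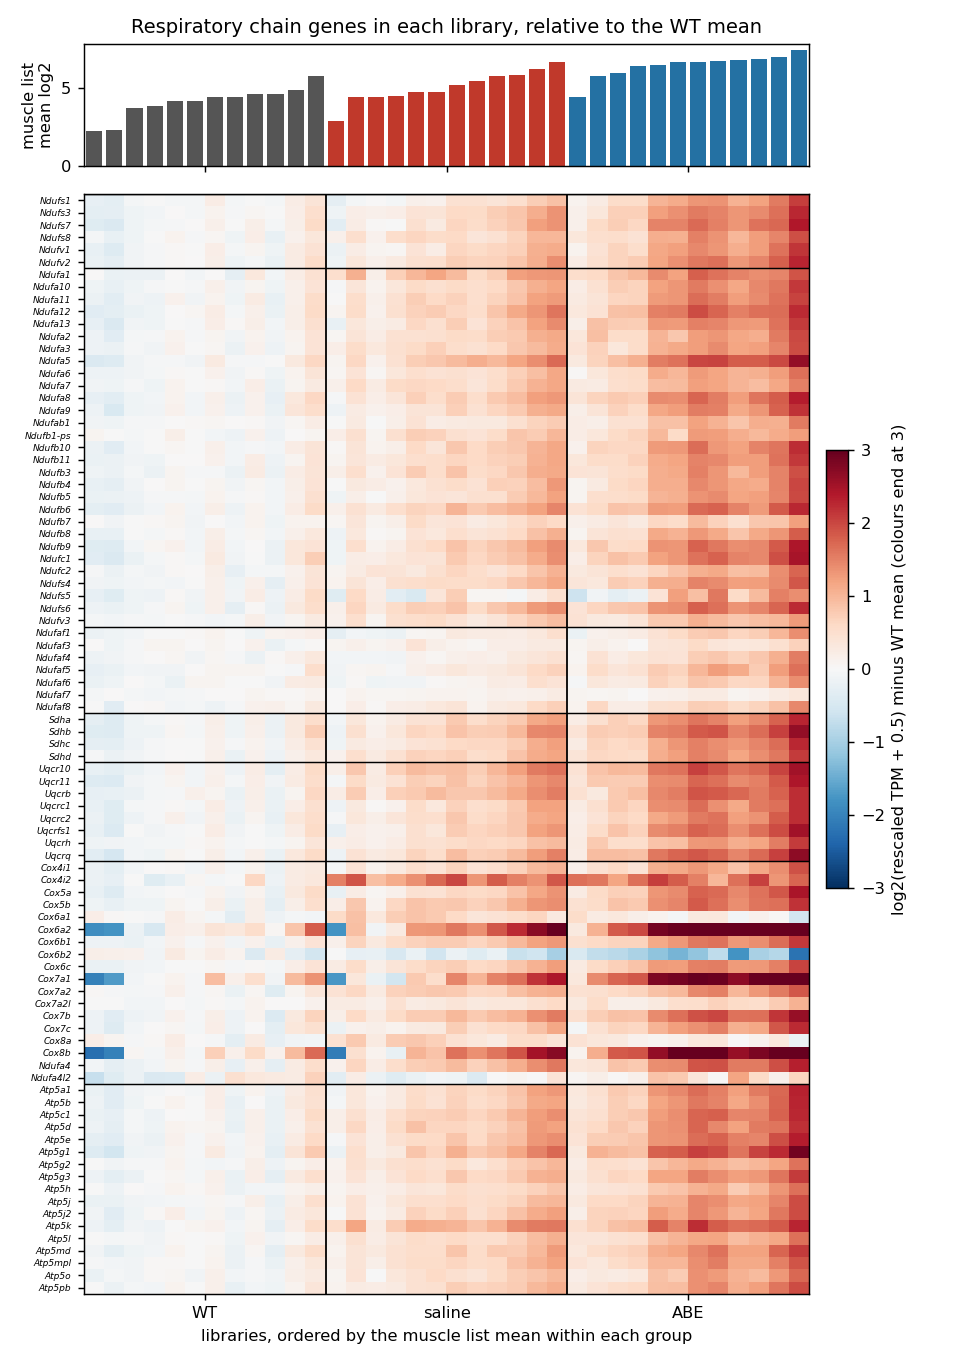
Log2(rescaled TPM + 0.5) of 89 of the 90 genes (rows, by complex, horizontal lines between complexes) in the 36 libraries (columns) less the WT mean, with the mean log2 level of 34 skeletal muscle markers in each library as bars above. Libraries are ordered by that mean within each group, and colours end at 3. Most rows turn a deeper red from left to right within saline and ABE, *Cox6a2*, *Cox7a1* and *Cox8b* most, while *Cox6b2* turns blue.

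The muscle forms of complex IV subunits rose most between ABE and WT. *Cox6a2*, *Cox7a1* and *Cox8b* encode the forms of subunits 6A, 7A and 8 found in striated muscle, the last pair also in brown fat. All 3 lie on chromosome 7, at 128205435-128206387, 30184144-30186078 and 140898945-140900446 (GRCm38), and are not neighbours. *Cox6a2* was at 2.99, 13.9 and 44.4 rescaled TPM in WT, 3.17, 31.7 and 107 in saline, and 15.1, 101 and 205 in ABE. The 3 groups overlapped, and single groups spanned more than the distance between their medians. Its log2 change was 2.60 ± 0.47 for ABE against WT (6.06-fold, adjusted p = 1.04e-05, limma) and 1.37 ± 0.47 for ABE against saline (adjusted p = 0.0165). For saline against WT it was 1.23 ± 0.47 (adjusted p = 0.027), and this call was lost without WT replicate 1 (1.06, adjusted p = 0.0568), WT replicate 11 (1.05), saline replicate 11 (1.06) or saline replicate 12 (1.10). *Cox7a1* went from 1.94, 9.76 and 24.9 in WT to 2.47, 18.0 and 52.4 in saline and 11.8, 70.6 and 164 in ABE. *Cox8b* went from 5.03, 28.8 and 85.8 to 5.75, 60.8 and 177 and then to 28.4, 177 and 437. In each the lowest ABE library was still within the WT range. Between ABE and WT *Cox7a1* rose by 2.52 ± 0.43 (adjusted p = 5.82e-06) and *Cox8b* by 2.46 ± 0.48 (adjusted p = 3.15e-05). Between ABE and saline both rose, by 1.74 ± 0.43 and 1.47 ± 0.48 (adjusted p = 0.00237 and 0.0123). Between saline and WT neither passed, with 0.78 ± 0.43 (adjusted p = 0.129) and 0.99 ± 0.48 (adjusted p = 0.0818), and both passed without saline replicate 4 (1.01 and 1.27), *Cox8b* also without WT replicate 6 (1.15). On the TPM as deposited *Cox6a2* was not called between saline and WT (1.07, adjusted p = 0.0641), nor were *Cox6a2* and *Cox8b* between ABE and saline (0.96 and 1.06, adjusted p = 0.071 and 0.0539).

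The widely expressed partners followed another course. *Cox6a1* was at 19.3, 23.5 and 28.3 rescaled TPM in WT, 29.6, 36.1 and 44.8 in saline and 16.2, 26.7 and 35.6 in ABE. Saline stood wholly above WT, and ABE overlapped both. *Cox6a1* rose by 0.59 ± 0.09 between saline and WT (adjusted p = 1.19e-06, limma) and fell by 0.47 on the log2 scale, SE 0.09, between saline and ABE (adjusted p = 0.000405). ABE and WT differed by 0.12, with a 95% interval of -0.06 to 0.30, and by 0.18 without ABE replicate 1, where the test passed (adjusted p = 0.0378). *Cox8a* was at 22.8, 27.7 and 32.9 in WT, 33.2, 39.7 and 48.9 in saline and 24.7, 32.5 and 37.6 in ABE. It rose by 0.53 ± 0.07 between saline and WT (adjusted p = 2.13e-07), fell by 0.33 between saline and ABE (adjusted p = 0.000885), and was 0.20 ± 0.07 higher in ABE than in WT (adjusted p = 0.0144). On the TPM as deposited, that last difference turned to -0.38 and was not called (adjusted p = 0.0795), and *Cox6a1* was at -0.45 between ABE and WT (adjusted p = 0.0518). The falls from saline to ABE held there, at -0.73 for *Cox8a* and -0.86 for *Cox6a1*. Markers of osteoclasts, the cells that resorb bone, moved in the same order as *Cox6a1* and *Cox8a*. Of 9 tested, 8 rose and 1 fell between saline and WT, 5 rose and 1 fell between ABE and WT, and 7 fell between ABE and saline. Their summed level was 145, 172 and 271 rescaled TPM (lowest, median and highest library) in WT, 153, 408 and 629 in saline and 125, 225 and 511 in ABE. Neutrophil markers had summed medians in the same order, at 1505 in WT, 2582 in saline and 1599 in ABE. Of 10 tested, 2 rose between saline and WT, 3 fell between ABE and WT, and 9 fell between ABE and saline. A fit given below holds the neutrophil list as a covariate. Of 14 osteoblast and osteocyte markers, 8 rose between saline and WT and 9 between ABE and WT, and 1 rose and 3 fell between ABE and saline. Of 6 chondrocyte markers, 6 fell in both comparisons with WT, and 3 rose between ABE and saline. The part of these cell types in the *Cox6a1* and *Cox8a* differences was not tested. *Cox7a2*, the partner of *Cox7a1*, behaved like the bulk of the chain instead. It rose by 0.72 ± 0.13 between saline and WT (adjusted p = 2.25e-05) and by 1.06 ± 0.13 between ABE and WT (adjusted p = 2.36e-08), and it did not overlap between ABE and WT.

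The ratio of the 2 forms within a library does not depend on the scaling. *Cox6a2* made up 35.4% ± 15.3 (SD, n = 12) of the TPM of both 6A forms in WT, 45.9% ± 19.9 in saline and 71.9% ± 18.1 in ABE, and single libraries ran from 8.13% in a saline mouse to 92.7% in an ABE mouse. The log2 ratio of muscle to widespread form was 2.54 higher in ABE than in WT for subunit 6A, 1.50 higher for 7A and 2.29 higher for 8. Each difference passed a two-sided permutation test with 100000 resamples (p adjusted over 15 tests = 0.000225, 0.000275 and 0.000275). ABE also exceeded saline, by 1.87, 1.44 and 1.83 (adjusted p = 0.00394, 0.000621 and 0.00328). Without ABE replicate 1 the differences from WT were 2.35, 1.44 and 2.11 and those from saline 1.68, 1.37 and 1.65, and all 6 still passed. Saline and WT did not pass, at 0.67, 0.07 and 0.47 (adjusted p = 0.270, 0.883 and 0.459), with standard errors of 0.53, 0.43 and 0.54. By sex the differences had opposite signs, at 1.96, 0.92 and 1.57 in males and -0.62, -0.79 and -0.64 in females. The difference between the sexes had an unadjusted permutation p of 0.0097, 0.0457 and 0.0374, and none passed adjustment over 15 tests (adjusted p = 0.145, 0.229 and 0.229).

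**Figure D3:**
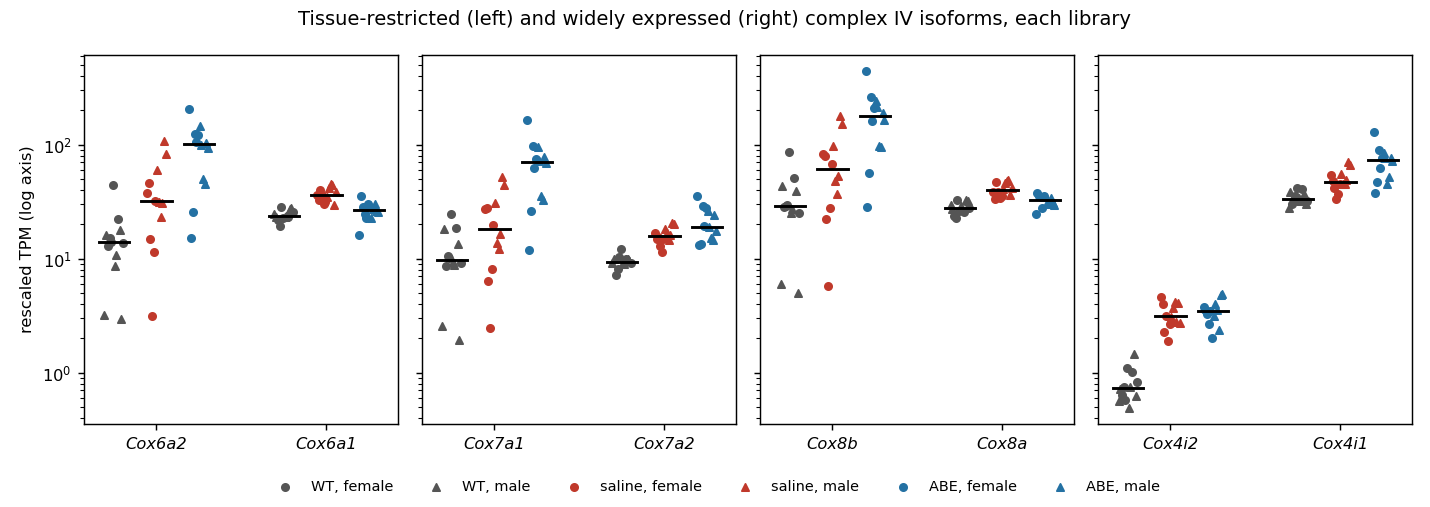
Rescaled TPM (log axis) of 4 pairs of complex IV isoforms in every library, with the tissue-restricted form on the left of each panel and the widely expressed form on the right. Circles are females, triangles males, and bars group medians. The muscle forms *Cox6a2*, *Cox7a1* and *Cox8b* spread over more than a factor of 10 within a group, their partners stay narrow, and *Cox4i2* steps up once, between WT and both LMNA G/G groups.

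As examples of the start regions of these genes, 170 bases before the RefSeq start site are given for a muscle form and a widespread form of subunit 8, and for the widespread form of subunit 6A. RefSeq promoters (GRCm38.p6) could be matched for 74 of the 90 genes. *Cox6a2* and *Cox4i2* were among those not matched. Capitals mark motifs, on either strand, that lie wholly within the printed stretch.
Cox8b, chr7:140900447-140900616, minus strand: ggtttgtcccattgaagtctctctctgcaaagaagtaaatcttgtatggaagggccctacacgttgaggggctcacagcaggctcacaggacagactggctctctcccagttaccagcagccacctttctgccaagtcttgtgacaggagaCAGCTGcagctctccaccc
Cox8a, chr19:7217617-7217786, minus strand: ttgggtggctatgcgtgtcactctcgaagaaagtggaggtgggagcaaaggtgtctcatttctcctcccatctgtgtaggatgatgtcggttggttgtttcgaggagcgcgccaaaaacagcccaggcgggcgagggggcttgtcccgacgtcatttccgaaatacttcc
Cox6a1, chr5:115348959-115349128, minus strand: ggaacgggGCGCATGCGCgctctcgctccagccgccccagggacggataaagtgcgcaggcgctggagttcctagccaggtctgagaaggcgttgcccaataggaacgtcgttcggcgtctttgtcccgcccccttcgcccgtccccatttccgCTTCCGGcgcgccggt

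In *Cox8b* the capitals are the E-box CAGCTG, a sequence that muscle regulatory factors can bind. In *Cox6a1* they are 2 overlapping matches of GCGCATGC, the core bound by NRF1, and 1 match of CCGGAAG, the core of the ETS family to which GABP belongs. *Cox8a* holds CCGGAAG too, across its start site and again after it, so neither match lies within the printed stretch. Over the windows from 250 bases before to 50 after the start, GCGCATGC or its reverse complement was found for 12 of 74 respiratory chain genes (16.2%) and for 3.05% of 27025 genes. CCGGAAG was found for 19 (25.7%, against 9.93%), AAGATGG, part of the YY1 motif, for 12 (16.2%, against 7.28%), and AAGGTCA, the core of the ERR motif, for 7 (9.46%, against 5.38%). CAGCTG was found for 6 (8.11%, against 18.3%), besides *Cox8b* the widely expressed genes *Atp5b*, *Ndufa8*, *Ndufb10*, *Ndufs5* and *Ndufv2*, and the MEF2 motif for none (against 3.70%). Neither *Cox7a1* nor *Cox7a2* held any of the 6 motifs. GCGCATGC can overlap its own reverse complement, and CAGCTG is its own. A match describes the letters and is not evidence of binding.

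Another pattern belonged to *Cox4i2*, which encodes the form of subunit 4 known from lung and from cells of small vessels. It was at 0.496, 0.733 and 1.46 rescaled TPM in WT, 1.88, 3.12 and 4.62 in saline and 2.03, 3.51 and 4.88 in ABE, on 73 to 833 reads a library. Both LMNA G/G groups stood wholly above WT and lay over each other. The log2 change was 1.53 ± 0.13 for saline against WT (2.90-fold, adjusted p = 1.66e-11, limma) and 1.61 ± 0.13 for ABE against WT (adjusted p = 5.32e-12). Between ABE and saline it was 0.07, with an interval of -0.19 to 0.33. Against *Cox4i1*, the widespread form, its share was 2.24% ± 0.600 in WT, 6.34% ± 1.56 in saline and 5.09% ± 1.90 in ABE. The log2 ratio was higher than in WT by 1.57 in saline and 1.17 in ABE (permutation test, adjusted p = 0.00015 and 0.000225, the first resting on the smallest p that the resamples can give). Of 8 endothelial markers, 3 rose and 1 fell between saline and WT, and 6 rose and 1 fell between ABE and WT, with summed levels of 22.4 to 34.9 rescaled TPM in WT, 19.5 to 36.5 in saline and 23.9 to 37.7 in ABE. This list covers endothelial cells and no other cells of small vessels, and the part of either in the *Cox4i2* difference was not tested.

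*Cox6b2*, the testis form of subunit 6B, was the only gene of the chain that fell in all 3 comparisons, and it was singled out after its values were seen. It was at 2.76, 4.72 and 5.26 rescaled TPM in WT, 1.91, 3.37 and 4.23 in saline and 0.533, 1.98 and 2.99 in ABE. The ABE group overlapped WT only at its upper end. The falls were 0.40, 1.11 and 0.71 on the log2 scale for saline against WT, ABE against WT and ABE against saline, each with an SE of 0.15 (adjusted p = 0.0224, 9.68e-08 and 0.000785, limma). *Ndufa4l2*, a paralog of the complex IV subunit *Ndufa4*, did not pass between saline and WT (-0.08, interval -0.38 to 0.22), while *Ndufa4* rose by 0.80 ± 0.19 (adjusted p = 0.000638). By sex, *Ndufa4l2* was at 0.33 in males and -0.49 in females between saline and WT. This difference between the sexes did not pass (adjusted p = 0.0930, limma). Between ABE and WT *Ndufa4l2* was at 0.71 in males and 0.12 in females. The log2 ratio of *Ndufa4l2* to *Ndufa4* differed from WT by -0.93 in saline and -0.87 in ABE (permutation test, adjusted p = 0.000225 and 0.00289). The transcripts of the 4 complex IV pairs share no run of identical bases longer than 14, and those of *Ndufa4l2* and *Ndufa4* none longer than 28.

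Markers of skeletal muscle moved with these results. All 34 genes of a muscle list, among them myosins, troponins, *Acta1* and *Ckm*, passed the minimum level. Between saline and WT 23 of 34 rose, between ABE and WT 34, and between ABE and saline 32, with median log2 changes of 1.12, 2.51 and 1.34. Their summed level ran from 304 to 4556 rescaled TPM in WT, 495 to 11537 in saline and 1616 to 18915 in ABE. The 3 lowest libraries of *Cox6a2*, *Cox7a1* and *Cox8b*, WT replicates 1 and 11 and saline replicate 4, were also the 3 lowest in the list. The 4 brown fat markers did not reach the minimum level, with sums of 0.248 to 0.743 over all libraries. In bulk bone, more muscle cells, among them any muscle left on the bone at dissection, and more RNA per muscle cell cannot be told apart.

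Within each group of 12, *Cox6a2* followed the mean log2 level of the muscle list with Pearson's r of 0.98 in WT, 0.96 in saline and 0.94 in ABE (Spearman's rho 0.87, 0.97 and 0.90, permutation p adjusted over 12 relations of 6.00e-05 or less for r and 0.00088 or less for rho). Without the 2 libraries farthest from the group's median in the list, r was 0.95, 0.90 and 0.89. In ABE those 2 did not include ABE replicate 1, so every ABE correlation given here holds that library. *Atp5b* had r of 0.72, 0.94 and 0.87 (adjusted permutation p = 0.0119, 4.00e-05 and 1.00e-04), and 0.66, 0.89 and 0.90 without those 2 libraries. Its rho was 0.55, 0.93 and 0.88, of which WT did not pass (adjusted permutation p = 0.0772). *Cox4i1* had r of 0.79, 0.90 and 0.85 (adjusted permutation p = 0.00288, 1.00e-04 and 0.000154), rho of 0.62, 0.82 and 0.87, and r of 0.65, 0.80 and 0.86 without the 2 libraries. *Cox6a1* had r of -0.38, -0.38 and -0.76, of which only ABE passed (adjusted permutation p = 0.0133). Its rho was -0.62, -0.43 and -0.69, of which WT (adjusted permutation p = 0.0432) and ABE passed, and r without the 2 libraries was -0.19, -0.38 and -0.76. On the TPM as deposited, the ABE relation of *Cox6a1* turned to 0.32 and did not pass, and in WT r of *Atp5b* and *Cox4i1* was only 0.13 and 0.04. For each doubling of the list *Cox6a2* changed by 1.0, 1.25 and 1.33 log2 units and *Atp5b* by 0.17, 0.34 and 0.65. Over the 90 genes the median r was 0.75, 0.91 and 0.87, against 0.00, -0.10 and -0.04 over all genes, and r was above 0.5 for 78, 84 and 85 of them, against 28.7%, 23.6% and 25.3% of all genes. In each group the 3 lowest values belonged to *Cox6b2*, *Cox6a1* and *Cox8a*. These medians and counts are a description, since all genes of a library share its composition.

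**Figure D4:**
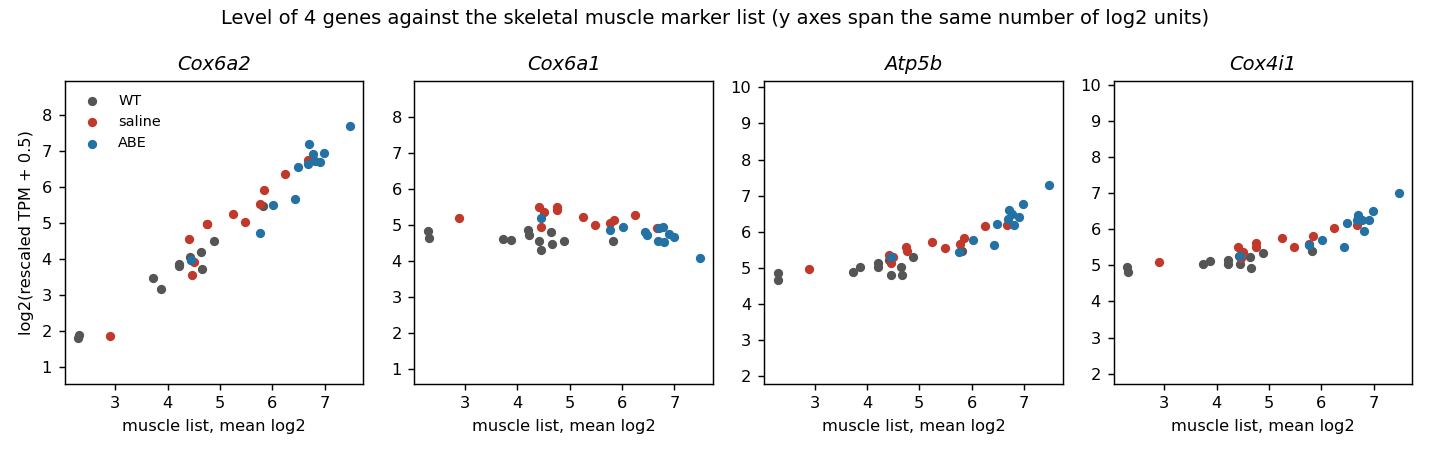
Log2(rescaled TPM + 0.5) of *Cox6a2*, *Cox6a1*, *Atp5b* and *Cox4i1* (vertical axes, each spanning the same number of log2 units) against the mean log2 level of 34 skeletal muscle markers (horizontal axis), 1 point a library. *Cox6a2* follows the list over its whole range, *Atp5b* and *Cox4i1* more shallowly, and *Cox6a1* does not rise with the list in any group, with saline points above the WT points.

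With the mean of the muscle list as a covariate, 45 of the 90 genes were higher in saline than in WT (21.9% of all genes) and 45 in ABE than in WT (13.5%), with medians of 0.26 and 0.38. None was called between ABE and saline (median 0.10), where 1.72% of all genes were called in either direction by limma. At an unadjusted p under 0.05 it was 8 of 90, and without the covariate 88. The covariate itself differs between the groups, so a change that goes with it cannot be told apart from the group. *Cox6a2*, *Cox7a1* and *Cox8b* were then at 0.09, -0.27 and -0.18 between saline and WT and at -0.16, -0.03 and -0.38 between ABE and WT, none called. *Cox4i2* kept 1.44 and 1.37, *Cox6a1* 0.69 and 0.38, and *Cox8a* 0.60 and 0.38, all called, while *Cox6b2* was at -0.56 in ABE (adjusted p = 0.0146). When the means of erythroid, neutrophil and B cell markers were added, *Cox4i2*, *Cox6a1* and *Cox8a* were the 3 genes still higher than WT in both LMNA G/G groups, at 1.22, 0.60 and 0.57 in saline and 1.14, 0.31 and 0.31 in ABE, and *Cox6b2* was lower in ABE, at -0.47. In that fit 10.6% of all genes were higher in saline and 5.81% in ABE than in WT, so 3 of 90 was a smaller share than that of all genes. Osteoclast markers were not among these covariates. Of 9 erythroid markers tested, 8 fell between ABE and either other group, 9 of 10 neutrophil markers fell between ABE and saline, and 8 of 10 B cell markers fell between either LMNA G/G group and WT.

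The number of genes that rose differed between the sexes, but without marker covariates no gene passed a test of the difference in its change. In males alone 85 genes were higher in saline than in WT (28% of all genes), with a median of 0.81, and in females alone 4 (8.79%), with a median of 0.33. Between ABE and saline it was 3 in males (11%), with a median of 0.31, and 79 in females (17%), with a median of 0.78. The muscle list went the same way. Its mean log2 level was 3.54 ± 1.02 in WT males and 5.45 ± 0.931 in saline males, but 4.71 ± 0.605 in WT females and 4.73 ± 1.04 in saline females, and in ABE it was 6.54 ± 0.306 and 6.38 ± 1.10 (SD, n = 6). A fit of the difference between the sexes with the list as covariate is given below for ABE against WT only. In a limma fit with the interaction, 0 of 90 genes differed between the sexes for saline against WT (0.478% of all genes), ABE against WT (2.95%) or ABE against saline (0.0248%), and 9, 2 and 10 had an unadjusted p under 0.05. With the muscle list as covariate 4 genes differed for ABE against WT, where 8.59% of all genes did. The change between saline and WT was larger in males for 89 of 90 genes. Most of these genes move together from library to library, so they are not independent results, and the share of all genes is not given here. For *Cox6a2* it was 2.49 ± 0.60 in males and -0.04 ± 0.60 in females, a difference of 2.53 with an interval of 0.79 to 4.26 (adjusted p = 0.102).

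*Ndufs5*, an accessory subunit of complex I, did not rise with the others between saline and WT (0.13 ± 0.21, adjusted p = 0.620, limma), and it was singled out after its values were seen. Its processed pseudogene, *Ndufs5-ps* on chromosome 16 at 42955631-42955949 (GRCm38), matches the *Ndufs5* transcript at 317 of 319 bases, and the annotation tags it as overlapping another locus. The reference sequences around the 2 differing bases follow, with the differing base in capitals, because within the shared stretch only these bases tell the 2 rows apart. Positions count from 1 at the first base of the pseudogene, and the base of *Ndufs5* stands first in T81C and A105G.
Ndufs5 at T81C: gcagaacagccctaTaagaacgccgctcg
Ndufs5-ps at T81C: gcagaacagccctaCaagaacgccgctcg
Ndufs5 at A105G: gctcggtgccacgcAtttgaaaaagagtg
Ndufs5-ps at A105G: gctcggtgccacgcGtttgaaaaagagtg

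In WT the pseudogene took 8.25% to 14.2% of the reads of both rows in all 12 libraries. In saline its share was 6.38% to 9.86% in 3 libraries, 28.1% to 35.2% in 3 and 52.6% to 60.8% in 6. In ABE it was at most 7.45% in 2 libraries, 23.6% to 35.8% in 2 and 52.3% to 59.2% in 8. The shares of LMNA G/G mice thus fell into steps that WT mice did not show, and the steps were present in both treatment groups. With the reads of both rows added, an alternative chosen after seeing the data, the change was 0.72 ± 0.18 for saline against WT (adjusted p = 0.00122), 1.32 ± 0.18 for ABE against WT (adjusted p = 1.73e-07) and 0.59 ± 0.18 for ABE against saline (adjusted p = 0.00849), close to the medians of the chain. The reads themselves were not examined here. The other 13 pseudogene rows with names of this family had means of at most 135 reads a library.

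**Figure D5:**
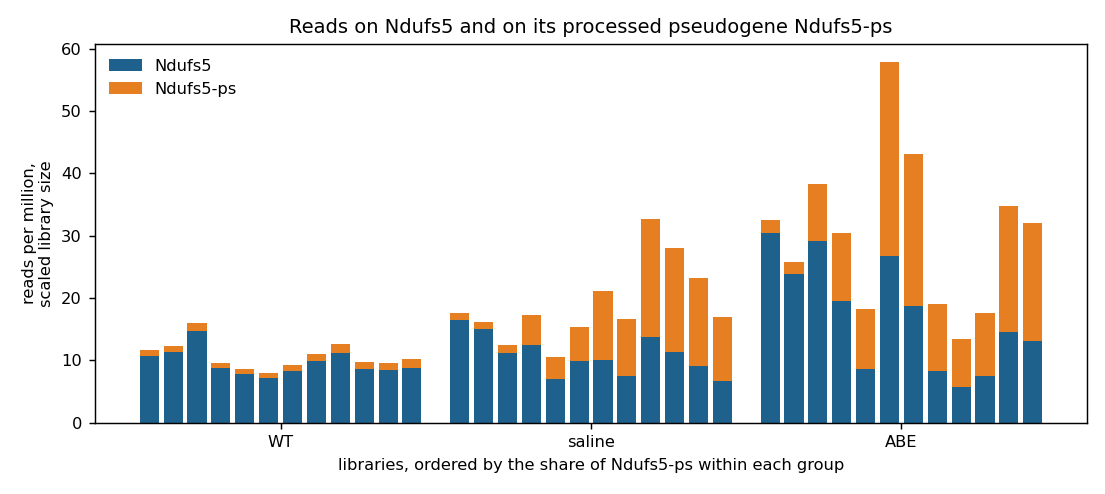
Reads, per scaled library size, counted on *Ndufs5* (blue) and on *Ndufs5-ps* (orange) in each of the 36 libraries, ordered by the share of *Ndufs5-ps* within each group. In WT the orange part is thin in all 12 libraries, and in 19 of 24 LMNA G/G libraries its share is above the highest of WT.

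Other genes of mitochondrial energy metabolism were counted from lists of known members, to be read against the shares of all genes given for each comparison at the start. Of 18 genes of the citric acid cycle and pyruvate dehydrogenase, 12 rose between saline and WT, 18 between ABE and WT and 18 between ABE and saline, with medians of 0.46, 1.10 and 0.66. Citrate synthase *Cs* rose by 1.05 between ABE and WT after 0.36 (adjusted p = 0.0649, limma) between saline and WT. Of 13 genes of cytochrome c and coenzyme Q, 7, 12 and 12 rose and none fell, with *Cycs*, cytochrome c itself, at 0.60 and 1.32 against WT. Of 33 other assembly factors, 10 rose and 2 fell between saline and WT (median 0.09), and 28 rose between ABE and WT (median 0.43) and 26 between ABE and saline (median 0.26). The 30.3% that rose between saline and WT lay near the 25.7% of all genes. On the TPM as deposited the medians of this list were -0.03, 0.06 and -0.05. Of 21 outer membrane and import genes, 14, 19 and 12 rose, with deposited medians of 0.13, -0.01 and -0.02. For regulators of mitochondrial biogenesis, between saline and WT 2 of 13 rose and 3 fell, between ABE and WT 8 rose and 5 fell, and between ABE and saline 8 rose and 2 fell. The shares that fell, 23.1% of the regulators between saline and WT and 38.5% between ABE and WT, lay near the 27% and 35.8% of all genes, and the deposited medians were -0.17, -0.24 and -0.10. The medians of this list after rescaling were -0.01 between saline and WT and 0.18 between ABE and WT. The 2 regulators named here lie at its ends. *Ppargc1a*, a coactivator of mitochondrial genes, had the largest rise in both comparisons, at 0.49 ± 0.17 and 1.24 ± 0.17. *Nrf1*, whose product binds the motif counted above, fell by 0.16 and 0.35, and the latter was the lowest value of the list.

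The adenine nucleotide translocases, which exchange ADP and ATP across the inner membrane, differed in the same way as the complex IV forms. Of 6 genes in a list of nucleotide and phosphate carriers, uncoupling proteins and mitochondrial creatine kinase, 4 rose between saline and WT, 4 rose and 1 fell between ABE and WT, and 3 rose and 2 fell between ABE and saline. *Slc25a4*, the form of heart and muscle, was at 26.5 ± 14.9 (SD, n = 12) rescaled TPM in WT, 54.7 ± 35 in saline and 133 ± 73.7 in ABE. It rose by 0.95 between saline and WT (adjusted p = 0.0323, limma) and by 2.27 between ABE and WT. *Slc25a5*, the widespread form, rose by 0.44 between saline and WT (adjusted p = 0.00104), fell by 0.48 between saline and ABE (adjusted p = 0.00123), and differed by -0.04 between ABE and WT (adjusted p = 0.735). It rose and fell as the summed osteoclast and neutrophil markers did, and the part of these cells was not tested. *Ckmt2*, the mitochondrial creatine kinase of striated muscle, was at 0.82 (adjusted p = 0.136) between saline and WT and rose by 2.61 between ABE and WT.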

How the data were processed

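Strand-specific poly(A) libraries of tibia were sequenced and, per the labels and the study's methods, aligned by the authors with STAR 2.73a to GRCm38 and counted on GENCODE genes. The authors deposited 1 table of TPM for 36 libraries; how the TPM were made is not given in the sources used here. The deposited TPM values were found to be whole reads (tolerance 0.01) over a shortened gene length, so reads per library could be recovered. The table as deposited also gives each gene's GC content as a fraction, used only in the alternative that removed trends with length and GC. The length is the union of all exons, which understates genes with long, rarely used exons. Libraries were rescaled by the median ratio over 14219 genes. Differences of log2(rescaled TPM + 0.5) were fitted over all 36 libraries with limma 3.58.1 (R 4.3.3), sex as covariate, for genes whose mean reached 0.5 TPM, and adjusted by Benjamini-Hochberg over all 16123. Isoform ratios and correlations were tested by two-sided permutation (100000 resamples), and exactly within a sex.

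Intervals are at 95%. Genes named were the isoform pairs, the 2 most abundant genes of each complex, the 3 largest rises and falls with a group mean of at least 5 rescaled TPM, and up to 5 non-overlapping genes a comparison. Genes and lists were chosen with earlier results of these data known. The fit was tested on simulated data. Alternatives were the deposited scale, other pseudocounts and filters, marker lists as covariates, each sex alone and leaving out each library. Of the recovered reads 100% came out whole, and limma-voom on them called 80, 88 and 82 of the 90 genes higher. The share of all genes called in that fit is not given here. No 2 libraries were identical. Some results are not reported here.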

Additional observations from a re-analysis of the deposited data

Results flagged for a closer look

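The pseudogene *Ndufs5-ps* lies outside the genes compared above, and 19 of the 24 LMNA G/G libraries had a share of its reads above the highest WT share (14.2% of the reads of *Ndufs5* and *Ndufs5-ps* together). These were 9 saline and 10 ABE libraries. The other 5 lay within or below the WT range. Whether the reads differ at the 2 bases that separate the transcripts was not tested, because only values per gene were used.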

How the results depend on the processing

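Leaving out each of the 36 libraries in turn gave 74 to 82 genes higher between saline and WT, 88 to 89 between ABE and WT and 75 to 85 between ABE and saline, with 1, 1 and 3 lower each time. On the TPM as deposited 38, 74 and 1 genes were higher and 2 were lower between ABE and WT and 3 between ABE and saline; r with the muscle list fell to 0.132 (*Atp5b*, WT) and 0.0397 (*Cox4i1*, WT) and reversed to 0.319 (*Cox6a1*, ABE); and between ABE and saline *Cox7a2* (-0.060), *Atp5g2* (-0.050), *Ndufaf8* (-0.041), *Cox7a2l* (-0.22) and *Ndufa1* (-0.021), and between ABE and WT *Cox8a* (-0.38), *Ndufa4l2* (-0.013) and *Cox7a2l* (-0.051), changed sign. A minimum of 25 TPM, which tests fewer genes, gave 10, 11 and 10 higher and 0 lower between saline and WT. All 36 calls of single named genes still tested at this minimum held, so the smaller counts do not come from lost calls of those genes. How many chain genes were tested at this minimum, and the share of all genes called, are not given here.

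With the muscle list as covariate 45, 45 and 0 genes were higher and 0, 1 and 0 lower, 4 genes differed between the sexes for ABE against WT, and signs reversed between ABE and WT for *Cox6a2* (-0.16), *Cox7a1* (-0.026), *Cox8b* (-0.38), *Ndufa4l2* (-0.14) and *Ndufs5* (-0.14) and between ABE and saline for *Cox6a2* (-0.25), *Cox8b* (-0.19) and *Atp5k* (-0.0070). With 4 lists, 3, 3 and 0 were higher and 0, 1 and 1 lower. Signs then reversed between saline and WT for *Cox6a2* (-0.27) and *Ndufv1* (-0.031), between ABE and WT for *Cox6a2* (-0.44), *Cox7a1* (-0.20), *Cox8b* (-0.51), *Ndufa4l2* (-0.25), *Ndufaf1* (-0.081) and *Ndufs5* (-0.40), and between ABE and saline for *Cox6a2* (-0.17), *Cox8b* (-0.15), *Atp5g2* (-0.0072), *Ndufaf8* (-0.012) and *Cox7a2l* (-0.020).

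Each sex alone leaves 6 libraries a group. Females gave 4 higher and 0 lower between saline and WT, and *Cox6a2* at -0.035; males gave 3 higher between ABE and saline. The log2 ratio of *Cox6a2* to *Cox6a1* passed between saline and WT in males (1.96) and not between ABE and WT in females (1.82) or between ABE and saline in males (1.3) or females (2.44). In females *Cox7a1* to *Cox7a2* (0.89 and 1.68) and *Cox8b* to *Cox8a* (1.57 and 2.20) no longer passed between ABE and WT or saline, and *Ndufa4l2* to *Ndufa4* did not pass between ABE and WT in males (-0.48) or females (-1.27). Apart from the marker covariates, the smaller sample of 1 sex and the fewer genes of the high minimum, the cause was not tested. Of 3240 calls of single named genes with 1 library left out, 36 were lost and 11 gained, and the rest held. Intervals and p-values cover the spread between these mice, and genes near the minimum of 0.5 TPM rest on fewer reads than abundant genes of the same length.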
